A study of Capsella grandiflora and Capsella rubella and Capsella orientalis with 27 samples.

Results

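Expanding and maturing flower buds of Capsella orientalis were compared with those of Capsella rubella, 3 libraries of each species, 6 of the 27 libraries of the series. The libraries were taken by their labels alone, and the comparison was described across all 26521 gene identifiers of the deposited count files. Both plants are mustard-family species that fertilise themselves. The labels name the species and the stage and give no accession, genotype, treatment or plant age for buds. Libraries of the same 2 species from dividing flower buds and from 10 day old seedlings, and all 3 stages of the outcrossing C. grandiflora, stood beside them, also 3 libraries a group. The labels do not say whether the 3 libraries of a group came from separate plants, so the spread behind the p-values may be technical. The gene tests pooled the spread within groups over all 27 libraries.

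Capsella species that turned from outcrossing to selfing tend to carry small flowers that open little and make little pollen, changes known together as the selfing syndrome. C. rubella and C. orientalis reached selfing in separate lineages, C. rubella from a C. grandiflora-like ancestor. In an expanding bud the petals, stamens and style enlarge mainly by cell growth while pollen matures, whereas in a dividing bud the organs still form new cells. A direct comparison of the selfing species asks where 2 plants with similar breeding habits differ in gene activity.

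The files pair no identifier with a gene name, so no gene has a known role here, and 0 of 36 lists of gene names and product words matched an identifier. The labelled tissue could for that reason not be checked against known marker genes. It was checked against genes preferential to expanding buds in C. grandiflora, meaning genes that passed the test below with 2-fold or more over its dividing buds and over its seedlings. These 2730 genes held 15.5% ± 0.127 of the counts on tested genes in C. orientalis expanding buds, 4.87% ± 0.0545 in its dividing buds and 2.22% ± 0.0865 in its seedlings (SD, n = 3 each). In C. rubella the shares were 14.9% ± 0.452, 3.13% ± 0.0540 and 2.18% ± 0.0545. In both species the share was highest in expanding buds, and there the libraries of the 2 species overlapped. In dividing buds the share was higher in C. orientalis, and how closely the bud stages of the 2 species were matched was not tested.

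Gene counts per library were 26644798, 30280555 and 33084118 in C. orientalis and 32536325, 33093499 and 39580412 in C. rubella. Reads that aligned to several places made up 6.75% ± 0.131 of listed reads in C. orientalis and 4.13% ± 0.0971 in C. rubella, and reads outside any gene 3.93% ± 0.0705 and 5.53% ± 0.0876 (SD, n = 3 each). These shares did not overlap between the species, and their part in the gene differences was not tested. Between replicates the median coefficient of variation over 11587 genes with at least 10 CPM in each of the 3 species was 6.36% in C. orientalis and 4.51% in C. rubella. Between 2 libraries of the same species 2.76% to 5.97% of gene counts would have to move to another gene to make them alike, and between a C. orientalis and a C. rubella library 14.2% to 16.6%. The ranges did not overlap.

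Most genes differed between the selfing species, and among the large differences C. orientalis was more often the lower one. Of 23186 genes tested, edgeR's quasi-likelihood test called 14410, or 62.1%, at a Benjamini-Hochberg adjusted p under 0.05. C. orientalis was higher for 6854 genes (29.6%) and lower for 7556 (32.6%). Among the 5667 genes called and at least 2-fold apart (24.4%), 2131 were higher (9.19%) and 3536 lower (15.3%), so that 62.4% were lower. The 3 values of each species did not overlap for 16513 genes (71.2%), with C. orientalis higher for 7990 (34.5%) and lower for 8523 (36.8%). Of the called genes 325 overlapped.

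The lean toward lower levels in C. orientalis grew with the size of the difference. Below 1.5-fold 3082 called genes were higher and 2405 lower. Between 1.5-fold and 2-fold the numbers were close, 1641 and 1615. From 2-fold to 4-fold 1066 were higher and 1596 lower, from 4-fold to 8-fold 383 and 629, from 8-fold to 32-fold 358 and 675, and at 32-fold or more 324 and 636. At 0 counts in the lower species stood 185 of the 2-fold higher genes and 447 of the lower ones, whose fitted fold depends on the small count that the fit adds. With these set to a bound from 3 counts over the group, 2126 genes were higher and 3499 lower by at least 2-fold.

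**Figure D1:**
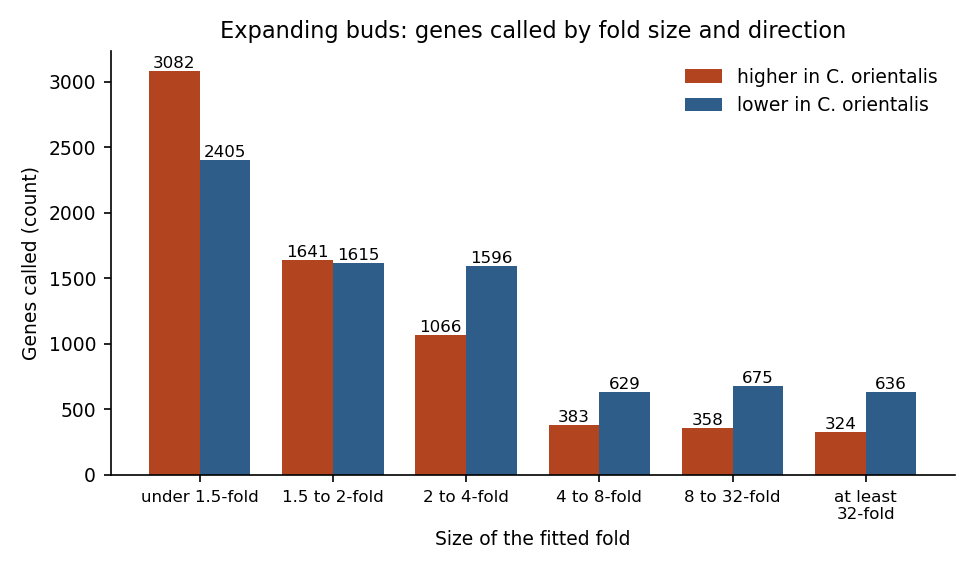
Genes called between C. orientalis and C. rubella expanding buds (vertical axis, count from 0) by size of the fitted fold (horizontal axis), with 1 bar for each direction. The higher bar is taller under 1.5-fold (3082 against 2405) and the lower bar is taller in every class from 2-fold up.

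The direction also went with the level of a gene. Levels are CPM, a gene's reads relative to its library's total after TMM scaling, and are not divided by gene length, so they rank read numbers and not transcripts. Among 10106 genes with a mean under 10 CPM over the 6 libraries, 14.9% were at least 2-fold higher and 27.2% at least 2-fold lower in C. orientalis. Among 13080 genes at 10 CPM or more these shares were 4.79% and 6.04%. Counting called genes of any fold, 4584 of these 13080 were higher and 3818 lower. From 100 to 1000 CPM 819 genes were higher and 464 lower, and the median log2 fold was 0.11. At that level the genes at least 2-fold apart leaned up too, 91 higher (4.37%) against 59 lower (2.83%). Under 1 CPM 790 were higher and 1474 lower, and the median was -0.56, or -0.16 with genes at 0 counts in a species set to their bound. Over all genes tested the median was -0.02.

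**Figure D2:**
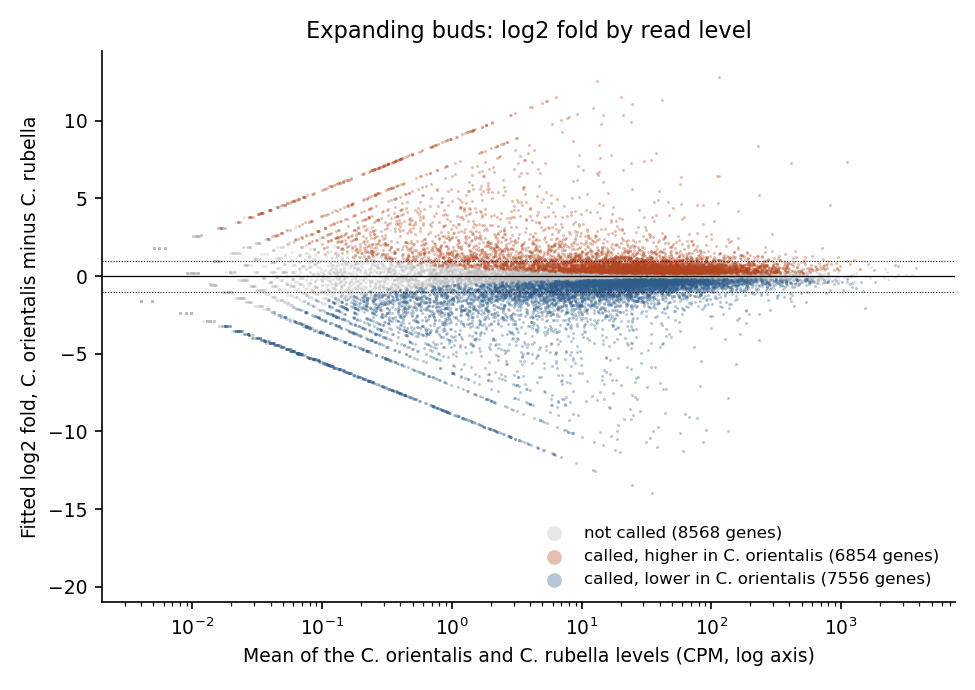
Fitted log2 fold, C. orientalis minus C. rubella (vertical axis), against the mean CPM of both species (horizontal log axis), 1 point per gene, with dotted lines at 2-fold. Called genes fan out on both sides, more densely below 0 at low levels; slanted rows of points at the edge are genes with very few counts in 1 species, and 208 genes that were not called and had no count in either are not drawn.

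The 4 identifiers with the largest differences among well counted genes had almost no reads in 1 of the species. They were the 2 in each direction with the largest fitted folds among called genes with at least 20 CPM in the higher species and no overlap, a pool of 3972 higher and 3022 lower genes. Carubv10018609m.g stood at 234, 215 and 238 CPM in the C. orientalis libraries and at 0.0291, 0.0583 and 0 CPM in those of C. rubella, which held 3 counts in all. The ratio of summed counts was 8416, with a 95% exact interval of 2879 to 40814 that covers counting error only (edgeR's quasi-likelihood test, adjusted p = 1.73e-20). All 3 C. orientalis libraries stood far above those of C. rubella. At the other stages C. orientalis was low too, at 0.389 ± 0.122 CPM in its dividing buds and 0.0557 ± 0.0965 CPM in its seedlings (SD, n = 3 each). In C. grandiflora expanding buds it was at 1.42 ± 0.353 CPM.

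Carubv10009511m.g was at 27.2, 27.7 and 24.7 CPM in C. orientalis and had no count in any C. rubella bud library. Against 3 counts over the group its level was at least 975-fold higher (edgeR's quasi-likelihood test, adjusted p = 2.82e-18). All 3 C. orientalis libraries were high and all 3 of C. rubella at 0. In C. orientalis its level was 26.7 ± 1.25 CPM in dividing buds and 3.10 ± 0.198 CPM in seedlings (SD, n = 3 each), while C. rubella had no count in dividing buds and 1 in seedlings. C. grandiflora expanding buds stood between the selfing species, at 3.66 ± 0.219 CPM.

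In the other direction, Carubv10015002m.g was at 68.1, 70.9 and 71.5 CPM in C. rubella and had no count in C. orientalis, at least 2113-fold lower by the same floor (edgeR's quasi-likelihood test, adjusted p = 1.06e-17). The species did not overlap here or at the other stages. C. rubella was at 56.1 ± 2.88 CPM in dividing buds and 48.5 ± 5.35 CPM in seedlings, where C. orientalis was at 0.0767 ± 0.104 and 0.0505 ± 0.0565 CPM. In C. grandiflora expanding buds it was at 6.27 ± 1.24 CPM. Carubv10015453m.g was at 47.6, 49.2 and 49.3 CPM in C. rubella with no count in C. orientalis, at least 1466-fold lower (edgeR's quasi-likelihood test, adjusted p = 5.04e-17). The C. grandiflora expanding bud libraries held 2, 2 and 0 counts of it, so C. rubella stood apart from both other species. Its level in C. rubella was 20.4 ± 1.80 CPM in dividing buds and 11.3 ± 0.611 CPM in seedlings. For these identifiers the gap between the selfing species was present at all 3 stages, except for Carubv10018609m.g, which was called in both bud stages (edgeR's quasi-likelihood test, adjusted p = 0.000221 in dividing buds) but not in seedlings (adjusted p = 0.870). Whether reads of each species align equally well to these gene models was not tested.

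**Figure D3:**
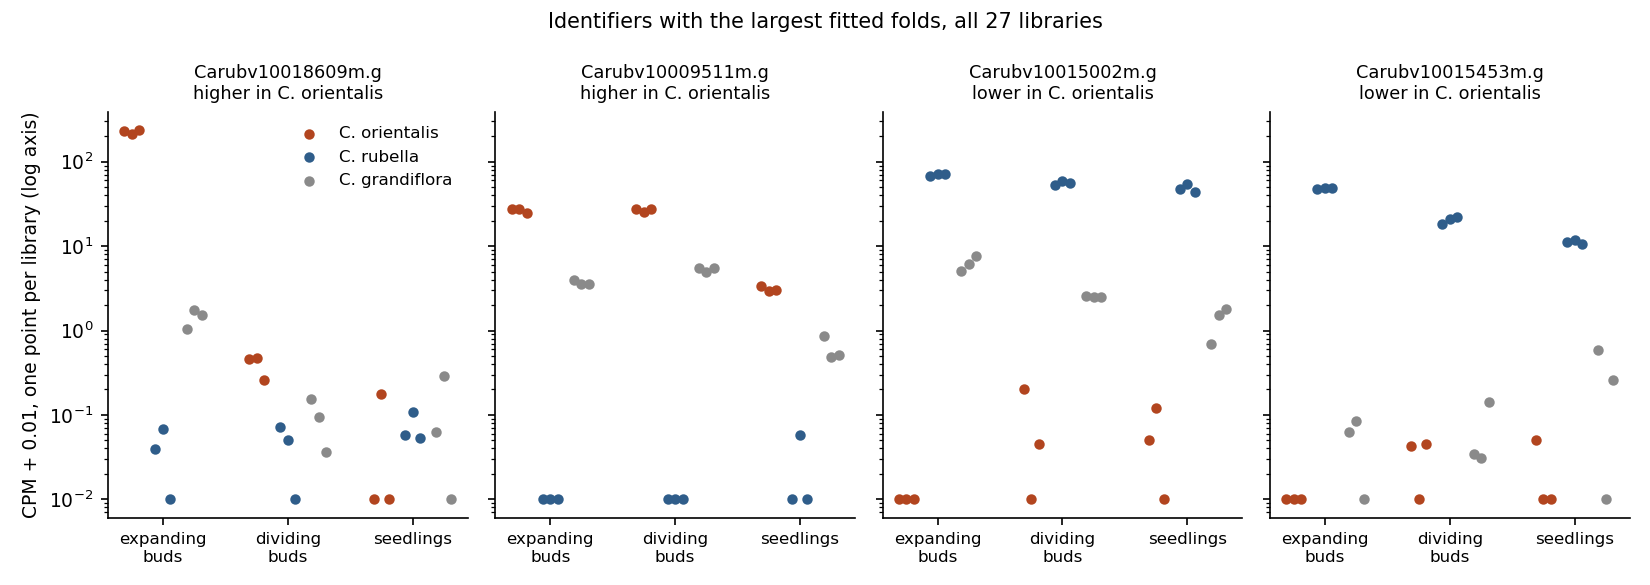
Levels of the 4 identifiers (vertical log axis, CPM plus 0.01) by stage (horizontal axis) and species (colour), 1 point per library, all 27 libraries. Points at the bottom edge had no count; Carubv10018609m.g reaches 215 to 238 CPM in the 3 C. orientalis expanding bud libraries and is under 2 CPM in the others, and the other identifiers show the gap between the selfing species at all stages.

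Near absence from 1 species was counted more often for C. orientalis than for C. rubella. At most 3 counts over the 3 libraries of C. orientalis and a mean of at least 5 CPM in C. rubella were found for 83 genes, with a median of 10.1 CPM and a highest value of 76.7 CPM in C. rubella. The reverse held for 34 genes, with a median of 10.7 and a highest value of 229 CPM in C. orientalis. Of the 83 genes 34 had no count at all in C. orientalis, at least 151-fold to 2113-fold lower, and of the 34 genes 10 had none in C. rubella, at least 207-fold to 975-fold higher. With near absence taken as at most 0.5 CPM the numbers were 227 and 95.

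Most of these genes were near absent from the species at all 3 stages. Of the 83 genes 57 were at or under 3 counts in C. orientalis dividing buds and seedlings as well, and 58 reached 5 CPM at all 3 stages in C. rubella. Of the 34 genes 22 were at or under 3 counts in C. rubella at all stages, and 13 reached 5 CPM in C. orientalis at all stages. C. rubella seedlings exceeded 5 CPM for 2 of the 34, and C. orientalis seedlings for 0 of the 83. C. grandiflora expanding buds held at least 5 CPM for 33 of the 83 genes, at most 3 counts for 17 and a level between for 33. For the 34 genes these numbers were 10, 8 and 16. Over all 26521 identifiers, 1318 had no count in C. orientalis but some in C. rubella, with a median of 5 counts, and 671 the reverse, with a median of 3, so most of these were near the limit of detection.

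To see which kinds of gene differed, genes were grouped by their stage profile in C. grandiflora. Its libraries are in neither group of the comparison, but they shared the gene filter, scaling and spread estimate of the fit. The groups are thus not fully independent of the calls. Beside the 2730 genes preferential to expanding buds there were 1996 preferential to dividing buds, 1258 preferential to both bud stages over seedlings, 3884 preferential to seedlings and 8836 even genes under 2-fold between all stages. Of the genes typical of expanding buds 790 (28.9%) stood above and 870 (31.9%) below C. rubella in the test, close to the 29.6% and 32.6% of all genes. Their median log2 fold was 0.01, and its sign turned when some single libraries were left out. By at least 2-fold 312 (11.4%) were higher and 481 (17.6%) lower, against 9.19% and 15.3% of all genes. Among the 1570 at 10 CPM or more 530 (33.8%) were higher and 426 (27.1%) lower at any fold. This was close to the 35% and 29.2% of all 13080 genes at that level. Even genes leaned up, with 3035 (34.3%) higher, 2669 (30.2%) lower and their median at 0.03. Those at least 2-fold apart leaned down as all genes did, 332 (3.76%) against 711 (8.05%), with both shares below those of all genes. Seedling genes had 993 (25.6%) higher and 1212 (31.2%) lower. At least 2-fold apart were 660 (17%) against 788 (20.3%), with both shares above those of all genes.

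Genes typical of dividing buds were lower in C. orientalis more often than higher, mainly those with few reads. Of 1996, 385 (19.3%) were higher and 825 (41.3%) lower in C. orientalis expanding buds, and at least 2-fold 212 (10.6%) against 613 (30.7%). The median log2 fold was -0.53, or -0.31 with genes at 0 counts set to their bound. Genes with few reads in these 6 libraries could enter the test through their reads at other stages. A fit of the 6 libraries alone, which drops genes with few counts, called 347 higher and 580 lower, with a median of -0.25. Of these genes 1050 had a mean under 1 CPM in expanding buds, and among them 113 were higher and 422 lower by at least 2-fold. Among the 438 at 10 CPM or more 145 (33.1%) were higher and 152 (34.7%) lower, with 32 against 49 at least 2-fold apart and a median of -0.02. Of all 13080 genes at that level 35% were higher and 29.2% lower. Within the 438, the class of 10 to 100 CPM held 131 higher and 146 lower genes. That of 100 to 1000 CPM held 14 higher (53.8%) and 6 lower (23.1%) of only 26 genes, with a median of 0.31. Of all 2084 genes at that level 39.3% were higher and 22.3% lower. The lean toward lower levels was thus larger among genes with few reads and small at 10 CPM or more. It was not seen from 100 to 1000 CPM, where 26 genes are too few to tell. Even genes under 1 CPM also leaned lower, with 76 higher against 155 lower of 381 by at least 2-fold.

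Genes of both bud stages were also lower in C. orientalis more often than higher. Of 1258, 300 (23.8%) were higher and 532 (42.3%) lower, and the median log2 fold was -0.24, or -0.23 with genes at 0 set to their bound. Of the 580 at 10 CPM or more 160 were higher and 231 lower (median -0.11), against 4584 higher and 3818 lower among all 13080 genes at that level (median 0.05). Within these, the class of 10 to 100 CPM held 129 higher and 201 lower genes. From 100 to 1000 CPM the group had 92 genes, of which 31 (33.7%) lay above C. rubella and 28 (30.4%) below (median 0.08). For all 2084 genes at that level these shares were 39.3% and 22.3% (median 0.11). By at least 2-fold, 9 of the 92 (9.78%) lay above and 11 (12%) below, against 4.37% and 2.83% of all genes there. The group's share of lower genes thus exceeded that of all genes at this level too, a difference that was not tested.

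The same group also took a smaller share of the reads in C. orientalis. Genes of both bud stages held 4.25%, 4.54% and 4.42% of the counts on tested genes in the C. orientalis libraries and 4.98%, 5.06% and 4.97% in those of C. rubella, with no overlap (two-sided exact permutation p = 0.1, the smallest that 3 against 3 libraries allow). Seedling genes held 10.9%, 11.6% and 11.7% against 11.9%, 11.9% and 12.1%, again with no overlap (exact permutation p = 0.1). Expanding bud genes held 15.3%, 15.6% and 15.5% against 14.6%, 15.4% and 14.7%, and dividing bud genes 2.22%, 2.03% and 1.93% against 2.23%, 2.09% and 2.18%. Both of these pairs overlapped (exact permutation p = 0.2 and 0.3), as did the even genes at 50.2% ± 0.610 and 49.7% ± 0.415 (exact permutation p = 0.4). In whole buds, fewer cells of a type and less RNA per cell cannot be told apart.

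**Figure D4:**
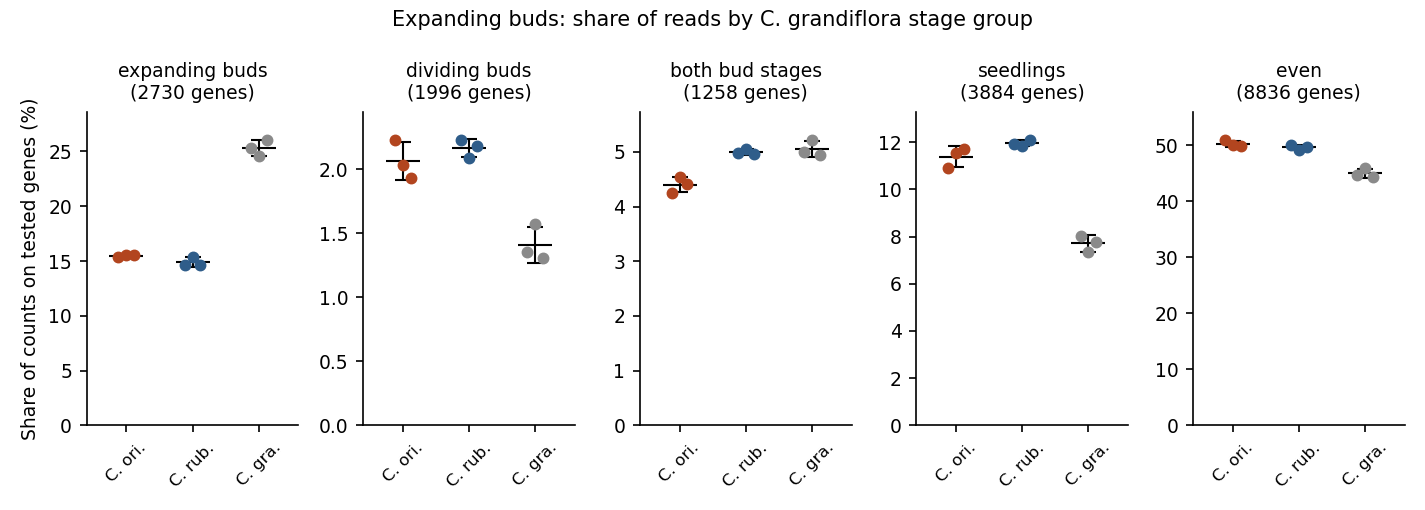
Share of counts on tested genes (vertical axis, percent from 0) held by each C. grandiflora stage group in expanding buds of C. orientalis, C. rubella and C. grandiflora (horizontal axis), 1 point per library, with mean and SD. The selfing species overlap in the expanding, dividing and even groups and are apart in the group of both bud stages (4.40% against 5.001%) and, narrowly, of seedlings (11.4% against 11.96%); C. grandiflora chose the groups, so its own shares are no comparison.

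The reads that differed between the species were spread over many genes. The 10 genes with the largest CPM difference held 4.39% of the summed difference, 8 of them higher in C. orientalis, and the 100 largest held 16.2%, 60 of them higher. Of these 100, 94 were called and 47 differed by at least 2-fold, and 29 were genes of expanding buds. Such genes were 2730 of 23186 among all genes and 300 of 2084 among those of 100 to 1000 CPM. Large CPM differences favour abundant genes, and the part of level was not tested. The 1000 largest held 46.2%, with 587 higher and 413 lower. The 10 most abundant genes of each library took 2.95%, 3.22% and 3.11% of gene counts in C. orientalis and 2.79%, 2.83% and 2.73% in the C. rubella libraries, which did not overlap (two-sided exact permutation p = 0.1). The 100 most abundant took 12.6% ± 0.318 against 12.3% ± 0.135 and the 1000 most abundant 41.7% ± 0.706 against 41.0% ± 0.210 (SD, n = 3 each). Both of these overlapped (exact permutation p = 0.2 and 0.3).

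Most differences between the species were also present outside expanding buds. The same test called 13584 genes between the species in dividing buds (58.6%; 31.1% higher and 27.5% lower in C. orientalis) and 13963 in seedlings (60.2%; 31.4% higher and 28.8% lower), in libraries of their own. Of 10215 genes called in both bud stages 9441 (92.4%) differed in the same direction, and of 9347 called in expanding buds and seedlings 7464 (79.9%). Across 23186 genes, which share their gene model and are not independent, the log2 folds of expanding buds had a Pearson correlation of 0.709 with those of dividing buds and 0.558 with those of seedlings. Of the 2131 genes at least 2-fold higher in C. orientalis expanding buds 1019 (47.8%) were called higher at both other stages, and of the 3536 lower genes 1628 (46.0%) were called lower at both. Among differences of 32-fold or more the same direction was called at all stages for 64.5% of 324 higher and 59.3% of 636 lower genes, and under 1.5-fold for 37.5% of 3082 and 26.0% of 2405.

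Of all genes at least 2-fold apart in expanding buds, 76.3% of the 2131 higher and 67.2% of the 3536 lower were called the same way in dividing buds. The stage groups are given beside these shares, and differences between the groups were not tested. Of 481 expanding bud genes at least 2-fold lower in C. orientalis expanding buds, 169 (35.1%) were called lower in dividing buds too, 14.1% were called higher there, and 40.5% were called at neither other stage. Of 312 expanding bud genes at least 2-fold higher, 214 (68.6%) were called higher in dividing buds. Of the even genes 302 of 332 higher (91.0%) and 644 of 711 lower (90.6%) were called the same way in dividing buds. At all 3 stages 74.3% of the lower even genes were called lower, against 19.3% of the lower expanding bud genes and 19.2% of the lower dividing bud genes. Genes of a stage were chosen for lower levels at other stages in C. grandiflora, and the part of level in these shares was not tested.

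**Figure D5:**
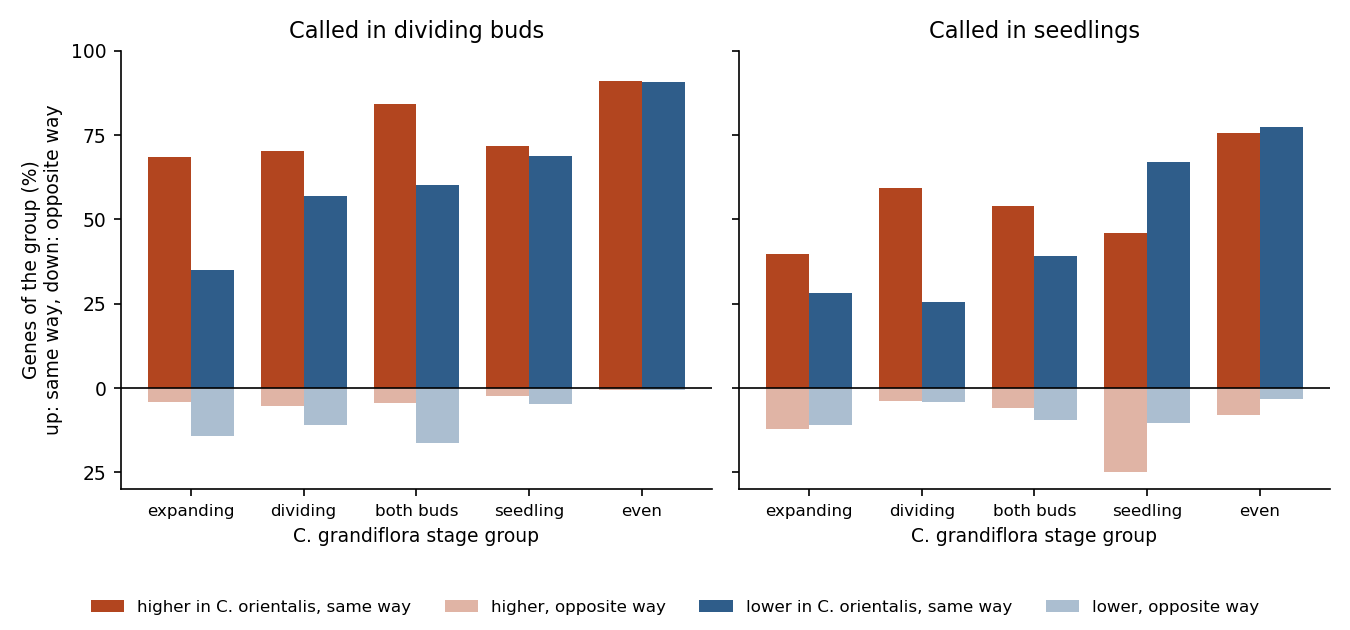
Of the genes with a 2-fold or larger difference in expanding buds, the percent also called in dividing buds (left) or seedlings (right) by stage group (horizontal axis), drawn upward for the same direction and downward for the opposite. Even genes reach 91.0% and 90.6% in dividing buds, while lower expanding bud genes reach 35.1%.

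A test of the difference itself found many genes whose species gap depended on the stage. Between expanding and dividing buds the gap differed for 5347 genes (23.1%; interaction term, edgeR's quasi-likelihood test, adjusted p under 0.05), with C. orientalis relatively lower in expanding buds for 3392 (14.6%) and higher for 1955 (8.43%). By at least 2-fold, 2062 (8.89%) were relatively lower and 793 (3.42%) higher. Of the 2730 expanding bud genes 746 (27.3%) were relatively lower and 160 (5.86%) higher by that measure. Their median log2 fold was 0.01 in expanding buds and 0.47 in dividing buds, so C. orientalis exceeded C. rubella for most of them in dividing buds and for about as many as not in expanding buds. Genes of both bud stages went the same way, with medians of -0.24 and 0.14, and 286 (22.7%) relatively lower against 51 (4.05%) higher. So did dividing bud genes, with medians of -0.53 and -0.15, and 356 (17.8%) relatively lower against 127 (6.36%) higher. Among seedling genes 308 (7.93%) were relatively lower and 199 (5.12%) higher. Only 1.41% of even genes were relatively lower and 0.917% higher. Against seedlings the gap differed for 10103 genes (43.6%), with C. orientalis relatively lower in expanding buds for 24.3% and higher for 19.3%.

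A smaller set had a gap that was larger in expanding buds than at both other stages. A gap of at least 2-fold in expanding buds, under 2-fold at both other stages and different from both by the interaction test was found for 153 genes higher and 205 lower in C. orientalis. Many of them also differed elsewhere by less than 2-fold. Of the 153 genes 83 (54.2%) were called the same way in dividing buds, 37 (24.2%) at all 3 stages and 42 (27.5%) at no other stage, and of the 205 genes 85 (41.5%), 43 (21.0%) and 74 (36.1%). The like levels at the other stages follow from how the set was chosen. The higher ones had a median level of 31.5 CPM in C. orientalis and 10.8 CPM in C. rubella expanding buds, against 13.3 and 11.6 CPM in dividing buds and 15.8 and 15.2 CPM in seedlings. The lower ones had 4.03 against 12.6 CPM in expanding buds, 6.24 against 7.76 CPM in dividing buds and 6.65 against 7.02 CPM in seedlings. In C. grandiflora expanding buds their medians were 18.9 and 11.1 CPM. By profile, 26.8% of the higher and 19.5% of the lower genes were even in C. grandiflora, 23.5% and 18.5% were seedling genes, 11.1% and 16.6% expanding bud genes, and 7.19% and 17.6% dividing bud genes. Of all genes tested 38.1% were even, 16.8% seedling, 11.8% expanding bud and 8.61% dividing bud genes. The set was drawn from the genes at least 2-fold apart, which had another profile. Of those 2131 higher genes 332 were even, 660 seedling, 312 expanding bud and 212 dividing bud genes. For the 3536 lower genes these numbers were 711, 788, 481 and 613. Differences in profile were not tested.

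For most genes at least 2-fold apart, C. grandiflora buds sat nearer to C. rubella than to C. orientalis. Of the 3536 genes at least 2-fold lower in C. orientalis, 2392 (67.6%) had a C. grandiflora mean on the C. rubella side of the midpoint on the log2 scale, and 1144 (32.4%) lay at or beyond the C. rubella mean. Of the 2131 higher genes 1213 (56.9%) lay on the C. rubella side. This varied with the stage group: 82 of 312 higher (26.3%) and 403 of 481 lower (83.8%) expanding bud genes lay there, 40 of 133 higher (30.1%) and 284 of 321 lower (88.5%) genes of both bud stages, and 463 of 660 higher (70.2%) and 400 of 788 lower (50.8%) seedling genes. These groups were chosen on C. grandiflora levels, so their place is partly set by the choice. The genes at least 2-fold apart were chosen by the fold between the selfing species. The C. grandiflora libraries shared the gene filter, scaling and spread estimate of that test. A fit of the 6 libraries alone gave 1842 genes at least 2-fold higher and 2957 lower. Among all 14410 genes called between the selfing species, C. grandiflora was called different from C. orientalis alone for 4562, from C. rubella alone for 2848, from both for 6242 and from neither for 758. These comparisons share the libraries of both species, so the numbers are a description and not separate evidence. On their own, 15713 genes (67.8%) were called between C. orientalis and C. grandiflora and 13830 (59.6%) between C. rubella and C. grandiflora.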

How the data were processed

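The authors deposited read counts for each gene as whole numbers, with a separate file for every library. Per the submitters' processing notes reads were trimmed with Trimmomatic and counted with HTSeq, and per the labels' protocols TruSeq libraries were sequenced for 50 cycles. Not given in the sources used here: tool versions, the aligner, the build, the annotation and whether counting used strand. All species share the same Carubv identifiers, which belong to C. rubella gene models; reads of a species that differs from the models can be lost, and near-identical copies or overlapping genes share reads. The 5 summary rows were dropped (shares in the report).

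Counts were fitted in R 4.3.3 with edgeR 4.0.16: filterByExpr left 23186 of 26521 genes, TMM scaling, 9 group means over all 27 libraries, 18 residual degrees of freedom, quasi-likelihood F-tests, Benjamini-Hochberg adjustment over all genes tested, called under 0.05. The fit was tested on simulated data. A group was taken as absent at 3 counts or fewer over its libraries. Named identifiers followed the rule given in the report, limited to 2 in each direction. Members, groups and lists were chosen with earlier results of these data known. Replicate pairs differed by 5.14 to 18.7 in chi-square per degree of freedom, so all 6 libraries were counted. Alternatives were RLE scaling, no filter, DESeq2 1.42.0, the 6 libraries alone, a replicate block, each library left out, an adjusted p under 0.01, another threshold of absence and another base for shares.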

Additional observations from a re-analysis of the deposited data

Results flagged for a closer look

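The difference between the species itself differed between stages by the interaction test, for 5347 genes between expanding and dividing buds and for 10103 between expanding buds and seedlings. The gap was at least 2-fold in expanding buds, under 2-fold at both other stages and different from both for 153 genes higher and 205 lower in C. orientalis, of which 83 and 85 were also called the same way in dividing buds.

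Carubv10018609m.g had a log2 gap larger by 9.32 in expanding than in dividing buds (edgeR's quasi-likelihood test, adjusted p = 0.00132) and by 13.13 than in seedlings (adjusted p = 1.54e-05). Carubv10009511m.g had a gap larger by 5.28 than in seedlings (edgeR's quasi-likelihood test, adjusted p = 0.0452). For Carubv10015002m.g the log2 difference of gaps between expanding and dividing buds was -4.55 (edgeR's quasi-likelihood test, adjusted p = 0.0493). In each of these the lower group held 0 to 3 counts in expanding buds, so the sizes depend on the small count that the fit adds and are no measure of the change.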

How the results depend on the processing

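Of 454 values under 14 alternatives, 444 were rated unchanged and 10 moved. Unchanged meant a shift under the replicate spread for medians and shares, and at most 1.5 times for counts. For the folds of the named identifiers it meant the same sign and still called. Only these folds, chosen for their size, could be rated reversed, and 0 were, so that number says nothing on the other values. The median log2 fold of expanding bud genes, 0.01, lay near 0 and changed sign without C. rubella replicate 1 (-0.0114), C. rubella replicate 3 (-0.00392) or C. orientalis replicate 3 (-0.01005). Genes called numbered 14423 with RLE scaling, 14655 with DESeq2, 14785 in a fit of the 6 libraries alone and 11947 at an adjusted p under 0.01, and 13243 to 13553 with 1 library left out. The median log2 fold of dividing bud genes was -0.25 with the 6 libraries alone and -0.26 with the replicate block, and that of seedling genes -0.0731 and -0.0783. The cause was not tested. An adjusted p under 0.01 left 3350 genes with a gap that differed between bud stages, 97 higher and 128 lower genes with a 2-fold gap in expanding buds and under 2-fold elsewhere, and 3861 genes for which C. grandiflora differed from both species. Near absence at most 0.5 CPM gave 227 and 95 genes.

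Replicate numbers did not pair the libraries: same-numbered libraries of the 2 species had deviations correlated at 0.01, -0.01 and -0.04. A fit with the replicate block called 14661 genes, 7169 higher and 7492 lower, and moved no count of calls by over 1.5 times.

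Low counts limit the result, and read loss on the C. rubella gene models was not measured. Of the 5667 genes at least 2-fold apart, those with a mean under 10 CPM carried most of the lean toward C. rubella, 1505 higher against 2746 lower, and at 10 CPM or more 626 against 790.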
